A study of Mus musculus with 74 samples.

Results

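Conventional CD4 T cells of the spleen were compared between mice of 12 and 3 months. They comprise the 7 libraries of 74 in the series whose titles name this sort, the spleen and an age, 4 at 12 months (replicates 1 to 4) and 3 at 3 months (replicates 1, 3 and 4). The mice of both ages were C57BL/6J females, and the treatment note common to the series gives them a subcutaneous MC38 colon carcinoma, harvested on day 10. Both ages thus share the tumor, and no library compared here is labelled as coming from a tumor-free mouse. No label says that libraries of an age came from separate animals, so p-values measure the spread between libraries. Each library came from 1000 cells, sorted a second time after a first sort as CD45+ TCRb+ CD4+ CD25-, and was prepared by Smart-seq2, which reads whole transcripts from small numbers of cells. The gate takes naive, memory and helper cells together and leaves in those regulatory T cells that carry little CD25. In such bulk libraries, more cells of a type and more RNA per cell cannot be told apart.

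Naive CD4 T cells circulate through spleen and lymph nodes until an antigen activates them. They then become effector or memory cells, among them follicular helper cells, which support B cells through interleukin 21. Repeated stimulation adds inhibitory receptors such as PD-1, LAG-3 and TIGIT. With age the spleen is known to hold fewer naive and more antigen-experienced CD4 T cells.

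The sort was checked first. Levels are given as CPM, the count of a gene scaled to the total of its library. Cd4 lay between 140 and 234 CPM in the 7 libraries, and Cd8a, which is abundant in the spleen CD8 T cells of the series (median 932 CPM), lay between 0 and 2.51 CPM. Foxp3, the defining factor of regulatory T cells, was at 21.2 to 79.9 CPM, against a median of 1019 CPM in the sorted regulatory T cells of the spleen. Library totals ran from 1995058 to 5509923 counts, with 16576 to 20679 genes detected and no replicates with the same counts throughout.

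At 3 months 2 of the 3 libraries stood apart. The 79 cytosolic ribosomal protein genes took 3.92% to 4.5% of the counts of the 4 libraries at 12 months. At 3 months replicate 3 was close to them with 4.65%, but replicate 1 had 8.86% and replicate 4 had 12%. Replicates 1 and 4 are called the ribosome-rich libraries below. Replicate 4 also carried 7408 CPM of 11 plasma cell markers, mostly Igkc, Ighm and Jchain, against 827 to 994 CPM in the other 6 libraries. The 30 genes of oxidative phosphorylation summed to 6969 CPM in the first of these libraries and to 8406 CPM in the second, while replicate 3, with 3746 CPM, lay inside the 12-month range of 3582 to 4414 CPM.

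**Figure D1:**
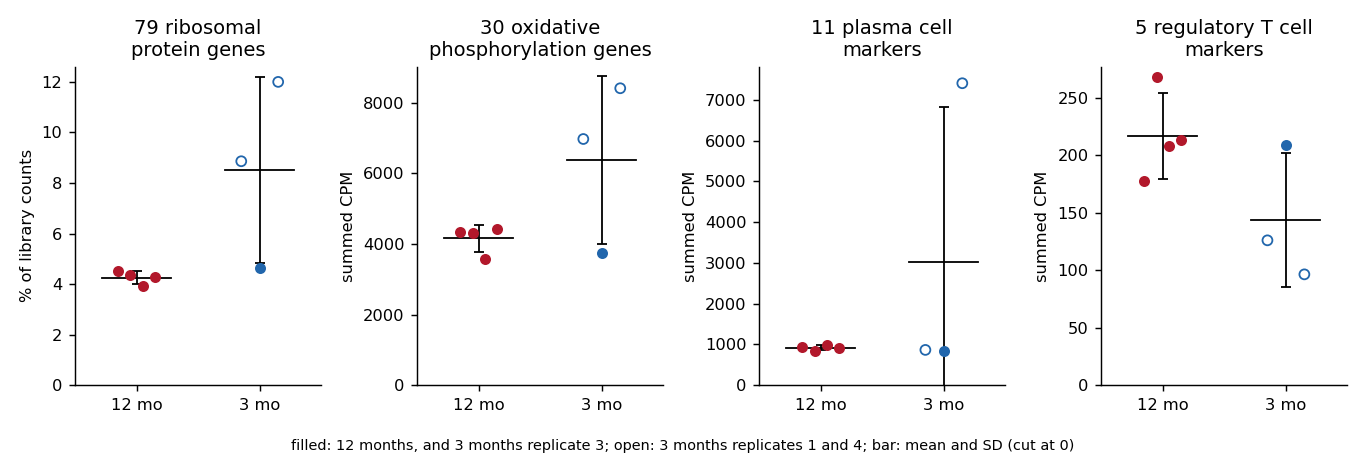
Share of counts in ribosomal protein genes (%) and summed levels (CPM) of oxidative phosphorylation genes, plasma cell markers and regulatory T cell markers in each spleen conventional CD4 library, by age, with mean and SD (12 months n = 4, 3 months n = 3). The ribosome-rich replicates 1 and 4 (open points) stand at 8.86% and 12%, while replicate 3 lies at 4.65%, beside the 12-month libraries.

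With all 7 libraries, 460 of 11726 genes tested passed an adjusted p of 0.05 in edgeR's quasi-likelihood test with Benjamini-Hochberg adjustment (3.92%). Of these, 230 rose (1.96%) and 230 fell (1.96%) at 12 months. Without the ribosome-rich libraries, replicate 3 is the one library left at 3 months, and it is assumed to vary like the 12-month libraries. This fit of 5 libraries called 70 genes (0.597%), of which 63 rose (0.537%) and 7 fell (0.0597%). A gene is said to hold when both fits called it in the same direction. That was so for 59 genes (0.503%), 56 that rose (0.478%) and 3 that fell (0.0256%). Single libraries moved the count of 460 widely: it was 2400 without replicate 3 at 3 months and between 88 and 165 without any one of the other 6.

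Replicate 3 was one of the 3 young libraries by which these genes were called, so its side for a called gene is a description and no independent support. Of the 230 genes that rose, 228 (99.1%) were lower in replicate 3 than in every 12-month library, where 25.7% of all genes tested were. Their median log2 fold change of 12 over 3 months was 1.85 with 7 libraries and 1.71 with 5. Of the 230 genes that fell, 107 (46.5%) were higher in replicate 3 than in every 12-month library, against 17.5% of all genes tested, and their median was -1.17 with 7 libraries and -0.21 with 5. Over all genes tested, the median was 0.00 with 7 libraries and 0.02 with 5. With 1 young library the test called 56 of the 230 genes that rose and 3 of the 230 that fell. Whether the genes that rose and those that fell differ in this was not itself tested. For comparison with the levels given below, the libraries of the ages did not overlap, with 12 months higher, in 11.2% of all genes tested, and with 12 months lower in 3.42%. These shares and the sides of replicate 3 rest on CPM, whereas the fold changes use a further scaling between libraries.

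**Figure D2:**
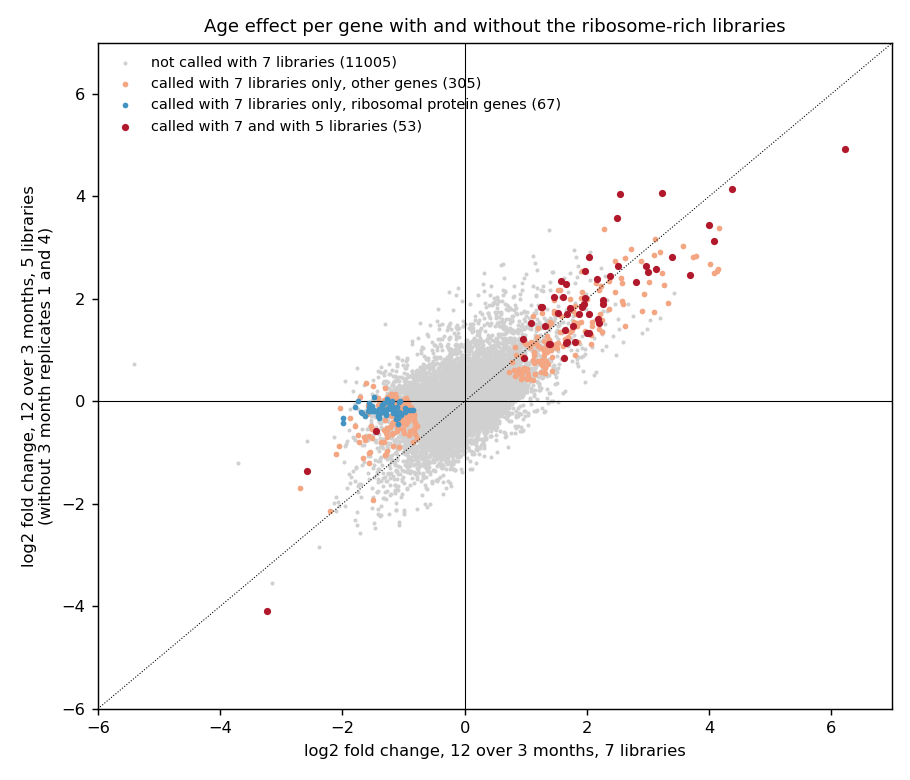
Log2 fold change of 12 over 3 months for each gene with all 7 libraries (x axis) and without the 2 ribosome-rich libraries (y axis), with the dotted line at equal values. It draws 11430 genes and leaves out the 296 with at most 3 counts in replicate 3, among them 6 that hold. The 230 genes that rose have close medians in the 2 fits (1.85 and 1.71). Single ones lie off the line on either side, such as Ikzf2 (1.63 and 0.85) and Egr2 (1.65 and 2.30). The 67 ribosomal protein genes that fell lie near 0 on the y axis (median -0.18). The libraries left out were set apart by the share of these same ribosomal protein genes.

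Of 12 inhibitory receptor genes tested, 3 rose, these 3 held, and none fell. Lag3, whose product binds MHC class II and dampens T cell signaling, was at 106, 69.2, 72.6 and 115 CPM in replicates 1 to 4 at 12 months and at 12.6, 5.18 and 7.59 CPM in replicates 1, 3 and 4 at 3 months. The lowest library at 12 months was thus over 5 times the highest at 3 months. Its log2 fold change was 3.24 (SE 0.33, adjusted p = 4.02e-05), and 4.06 (SE 0.44, adjusted p = 8.41e-05) without the ribosome-rich libraries. Pdcd1, which encodes PD-1, was at 118, 106, 127 and 162 CPM against 31.3, 34.1 and 25.2 CPM, again without overlap. Its change was 1.92 (SE 0.23, adjusted p = 0.000141) with 7 libraries and 1.84 with 5 (adjusted p = 0.00247). Tigit, a receptor for poliovirus receptor family ligands, varied little at 12 months, with 76.8, 79.7, 80.7 and 74.8 CPM, and was at 7.59, 13.7 and 18 CPM at 3 months. It rose by 2.37 (SE 0.29, adjusted p = 0.000151) on the log2 scale, and by 2.44 without the ribosome-rich libraries (adjusted p = 0.00091). The abundant members Btla and Cd96 did not pass, with log2 values of 0.30 (SE 0.18) and -0.26 (SE 0.18), and Cd200 gave 0.87 (SE 0.28, adjusted p = 0.0809). The median of the list was 0.59 with 7 libraries and 0.76 with 5.

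In the costimulation list 2 of 14 genes rose and neither held. Tnfrsf1b, which encodes a TNF receptor, rose by 1.43 (SE 0.26, adjusted p = 0.00628), and Tnfsf8, the ligand of CD30, by 1.30 (SE 0.25, adjusted p = 0.00965). With 5 libraries they gave 0.87 and 1.18 (adjusted p = 0.186 and 0.0587). Tnfrsf4, which encodes the costimulatory receptor OX40, behaved in the opposite manner. It was at 192, 233, 152 and 207 CPM at 12 months and 93.9, 79 and 134 CPM at 3 months, and passed with 5 libraries (log2 1.24, adjusted p = 0.022) but not with 7 (0.75, adjusted p = 0.0781).

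Follicular helper genes had 7 of 17 members that rose, and 4 of these held. Il21, the cytokine by which helper cells support B cells, was at 28.7, 21.1, 25.1 and 39.2 CPM at 12 months. At 3 months it was near absent, with 2.21, 1.52 and 0.2 CPM (13 counts in all). The log2 fold change was 4.37 (SE 0.54, adjusted p = 0.000158), and 4.14 (SE 0.66, adjusted p = 0.00292) without the ribosome-rich libraries. Sostdc1, which encodes a secreted antagonist of BMP and Wnt signaling, was at 96.4, 142, 208 and 135 CPM against 11.1, 0.305 and 12 CPM, where replicate 3 holds a single count. It rose by 3.97 with 7 libraries (SE 0.63, adjusted p = 0.0093). Maf, a transcription factor upstream of Il21 and Il10, was at 408, 562, 456 and 513 CPM against 98, 185 and 40.7 CPM. Replicate 3 was the highest of the young libraries here, and the change was 2.04 (SE 0.33, adjusted p = 0.00258) with 7 libraries and 1.33 (SE 0.22, adjusted p = 0.00292) with 5. Pdcd1 was the fourth.

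The other follicular helper genes were not all of one kind. Cxcr5, the receptor that leads cells into B cell follicles, rose from 37.3, 43.9 and 14 CPM to 104, 108, 75.8 and 117 CPM, a change of 1.53 (SE 0.31, adjusted p = 0.011) that did not pass without the ribosome-rich libraries (1.14, adjusted p = 0.0906). Angptl2, which encodes a secreted angiopoietin-like protein, rose by 2.45 (SE 0.36, adjusted p = 0.000823) and gave 2.14 with 5 libraries (adjusted p = 0.0808). Sh2d1a, which encodes the adaptor SAP, and Slamf6 gave 0.02 and -0.01. Outside the naming rule, Bcl6 gave 0.465 (adjusted p = 0.484), Icos 0.71 (adjusted p = 0.247) and Il4 -0.96 (adjusted p = 0.397), so none of them passed. The median of the list was 0.87 with 7 libraries and 0.95 with 5.

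Of 12 helper factors and cytokines tested, 3 rose and none held. Ifng, the interferon gamma gene, was at 60.4, 21.1, 34.7 and 14 CPM against 8.22, 3.05 and 6.39 CPM, a change of 2.28 (SE 0.49, adjusted p = 0.016). Il10 was at 6.53, 4.01, 17.1 and 10.3 CPM against 0.316, 2.44 and 1.4 CPM (2.60, SE 0.71, adjusted p = 0.0469). Rora, a nuclear receptor of Th17 and innate-like cells, rose by 0.94 (SE 0.23, adjusted p = 0.0281). The libraries of the ages did not overlap for any of the 3, but for the 2 cytokines the highest library at 12 months was over 4 times the lowest. Without the ribosome-rich libraries their adjusted p-values were 0.146 for Ifng, 0.648 for Il10 and 0.519 for Rora. Gata3, the Th2 factor, gave 0.50 (SE 0.24) with 7 libraries and -0.08 with 5, and Tnf gave 1.15 (SE 0.43, adjusted p = 0.138).

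Transcription factors induced by activation had 10 of 24 members that rose and none that fell, and 4 held. Bhlhe40, a helix-loop-helix repressor that supports cytokine production, was at 135, 98.7, 146 and 91.4 CPM against 8.22, 18.9 and 9.38 CPM. It rose by 3.13 (SE 0.30, adjusted p = 2.07e-05), and by 2.58 (SE 0.34, adjusted p = 0.00091) without the ribosome-rich libraries. Egr2, a zinc finger factor of the early response and of anergy, was at 55.2, 42.1, 48.6 and 42.4 CPM against 18.7, 9.15 and 11.8 CPM. Replicate 3 was the lowest library for this gene, and the change was 1.65 (SE 0.31, adjusted p = 0.00746) with 7 libraries and 2.30 (adjusted p = 0.00744) with 5. Ikzf2, which encodes Helios, was the most abundant of the 4, at 768, 1049, 901 and 933 CPM against 142, 486 and 179 CPM. Its fold depended more on the ribosome-rich libraries, with 1.63 (SE 0.31, adjusted p = 0.00965) with 7 libraries and 0.85 (SE 0.19, adjusted p = 0.0472) with 5. Maf, given above, was the other.

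Hif1a, the oxygen-sensing factor, was at 295, 304, 303 and 292 CPM at 12 months and at 93.6, 164 and 76.5 CPM at 3 months. It rose by 1.28 (SE 0.22, adjusted p = 0.00467) and gave 0.80 (adjusted p = 0.0744) with 5 libraries. Nfil3, a basic leucine zipper repressor, was at 10.9 to 14.2 CPM at 12 months and at 0.799 to 3.05 CPM at 3 months, and rose by 2.57 (SE 0.55, adjusted p = 0.0158). The remaining members that rose and did not hold were Tox, Irf4, Irf8 and Nr4a2. Runx1, Id2 and Nfatc1 did not pass, at 0.01, -0.25 and 0.53. The list's median was 1.20 with 7 libraries and 0.95 with 5. With 7 libraries 22 of 24 members had a positive value, against 50.1% of all genes tested. With 5 libraries 24 of 24 had one, against 51.7%, but those values share 1 young library, so their signs are not separate results.

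**Figure D3:**
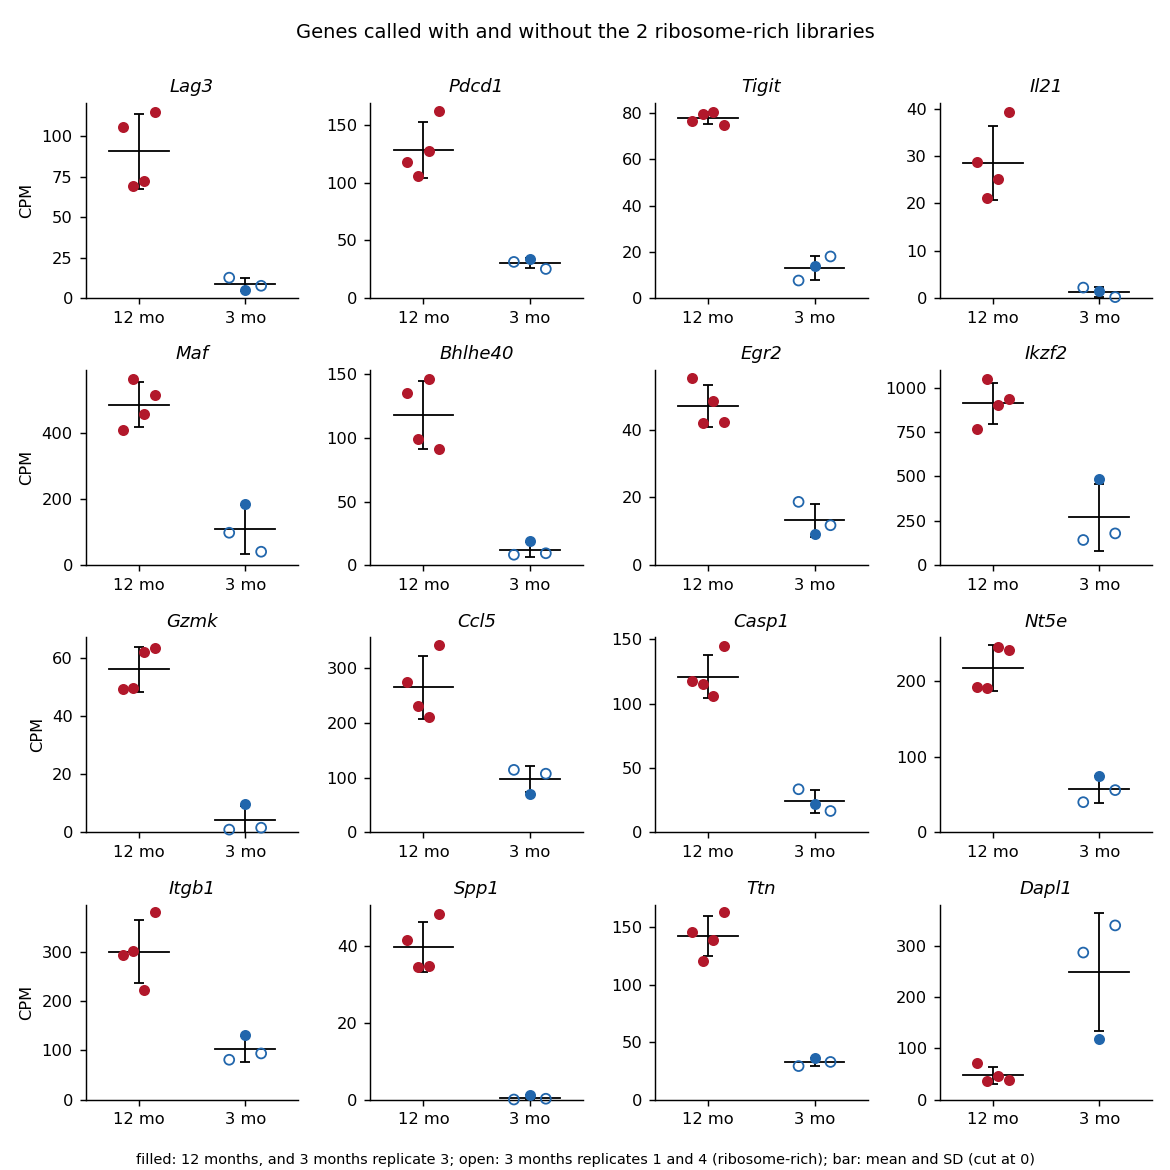
Levels (CPM, linear axes from 0) of 16 genes that hold, in each library at 12 and 3 months, with mean and SD (12 months n = 4, 3 months n = 3). In each panel the libraries of the ages do not overlap, and replicate 3 (filled, at 3 months) lies on the same side as the ribosome-rich replicates 1 and 4 (open). The genes were chosen by fits that include replicate 3, so its side is a description and no independent support. Of all genes tested, 11.2% did not overlap with 12 months higher, and 3.42% with 12 months lower.

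Cytotoxic and chemokine genes had 7 of 19 members that rose, 6 of which held, and 1 that fell. Gzmk, a granzyme of antigen-experienced T cells, was at 49.4, 49.6, 62.2 and 63.5 CPM against 0.948, 9.76 and 1.6 CPM. It rose by 3.68 (SE 0.49, adjusted p = 0.000311), and by 2.46 (SE 0.40, adjusted p = 0.00292) without the ribosome-rich libraries. Ccl5, a chemokine of memory T cells, was at 274, 231, 211 and 342 CPM against 114, 70.4 and 107 CPM, where replicate 3 was the lowest. Its change was 1.25 (SE 0.24, adjusted p = 0.0093) with 7 libraries and 1.84 (SE 0.26, adjusted p = 0.00112) with 5. The granule protein gene Nkg7 rose by 0.95 (SE 0.21, adjusted p = 0.0188), the cystatin gene Cst7 by 1.09 (SE 0.24, adjusted p = 0.0167) and the serpin gene Serpina3g by 1.58 (SE 0.35, adjusted p = 0.0171). Without the ribosome-rich libraries these 3 gave larger values, 1.21, 1.52 and 2.36.

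Spp1, which encodes the secreted glycoprotein osteopontin and was counted in the same list, had the largest fold of the genes that hold, at 41.6, 34.6, 35 and 48.5 CPM against 0, 1.22 and 0.2 CPM. The 3-month libraries held 5 counts in all, 4 of them in replicate 3. The change was 6.23 (SE 0.55, adjusted p = 1.56e-05), and 4.93 (SE 0.61, adjusted p = 0.000351) with 5 libraries. Ccl4 rose and did not hold. Klrd1, which encodes the NK receptor subunit CD94, fell from 49, 38.7 and 67.7 CPM to 22.3, 26.1, 10.7 and 16.4 CPM (log2 -1.66, SE 0.32, adjusted p = 0.00965) and did not hold (adjusted p = 0.461). The perforin gene Prf1 did not pass, at 0.23 (SE 0.28). Markers of NK cells summed to 13.1 to 30.1 CPM at 12 months and 14.6 to 26.8 CPM at 3 months, Ncr1 had no count in any of the 7 libraries, and the CD8 markers Cd8a and Cd8b1 summed to 10.5 to 27.5 and 16.8 to 25 CPM.

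Adhesion and memory genes had 5 of 20 members that rose and 1 that fell, and 3 held. Itgb1, the integrin beta 1 chain, was at 293, 302, 223 and 380 CPM against 80.6, 131 and 93.4 CPM (1.39, SE 0.22, adjusted p = 0.00196). Ahnak, a large scaffold protein gene, was at 277, 333, 366 and 300 CPM against 81.2, 139 and 54.9 CPM (1.65, SE 0.25, adjusted p = 0.00129). Anxa2, which encodes annexin A2, rose by 1.27 (SE 0.24, adjusted p = 0.0093) and, without the ribosome-rich libraries, by 1.83 (SE 0.26, adjusted p = 0.00121). With 5 libraries Itgb1 gave 1.12 and Ahnak 1.13. Cd44, the hyaluronan receptor that marks antigen-experienced T cells, was at 484, 450, 437 and 464 CPM against 209, 324 and 124 CPM. It rose by 0.92 (SE 0.24, adjusted p = 0.0415) and did not hold (0.44, adjusted p = 0.484), and neither did Itga4 (0.86 and 0.54). Ly6c1, a Ly6 surface protein gene, fell by 1.73 (SE 0.27, adjusted p = 0.00157), from 226, 129 and 322 CPM to 64.7 to 92.7 CPM, and gave -0.79 (adjusted p = 0.225) with 5 libraries.

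Among 12 anergy and adenosine genes, 3 rose and 2 held. Nt5e encodes CD73, the ectoenzyme that makes adenosine from AMP. It was at 191, 190, 245 and 240 CPM against 39.8, 74.7 and 55.7 CPM, a change of 1.77 (SE 0.22, adjusted p = 0.000189) with 7 libraries and 1.47 (SE 0.24, adjusted p = 0.00292) with 5. Nrp1, the semaphorin co-receptor neuropilin 1, was at 236, 238, 308 and 358 CPM against 47.1, 94.2 and 27.8 CPM (2.20, SE 0.30, adjusted p = 0.000477, and 1.53 with 5 libraries). The folate receptor family gene Izumo1r, which marks anergic and regulatory cells, passed with 5 libraries (1.06, adjusted p = 0.0143) and not with 7 (0.56, adjusted p = 0.14). Of 13 survival and death genes, 3 rose and 2 held, both inflammatory caspases. Casp1 was at 118, 115, 106 and 145 CPM against 33.5, 22 and 16.6 CPM (2.16, SE 0.26, adjusted p = 0.000151) and Casp4 at 140, 122, 111 and 184 CPM against 27.5, 32.6 and 33.5 CPM (1.97, SE 0.23, adjusted p = 0.000141). With 5 libraries the values were close to these, 2.39 and 2.02. Bcl2 and Mcl1 did not pass.

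Genes outside these lists were chosen by the size or the adjusted p of their change among those that rose. Gpm6b, a proteolipid family membrane protein gene, was at 276, 314, 181 and 389 CPM against 21.8, 44.5 and 33.1 CPM, and rose by 2.96 (SE 0.28, adjusted p = 2.07e-05). Cybb, a subunit of the phagocyte NADPH oxidase, was at 93.8, 117, 78 and 90.9 CPM against 5.69, 18 and 12.6 CPM (2.80, SE 0.31, adjusted p = 0.000101). Both held, with 2.63 and 2.33 in the 5 libraries. Ttn, the titin gene, was at 146, 121, 139 and 163 CPM against 29.1, 36.3 and 32.7 CPM, with log2 values of 1.95 and 1.91 in the 2 fits.

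Itgb8, an integrin chain that activates latent TGF-beta, was at 34.3, 54.6, 73.4 and 71.8 CPM against 2.53, 7.93 and 4.39 CPM. It rose by 3.40 (SE 0.38, adjusted p = 0.000103) and by 2.81 (SE 0.49, adjusted p = 0.00484) without the ribosome-rich libraries. Tnc, the matrix protein tenascin C, was at 16.9, 26.1, 25.1 and 31.4 CPM against 0.316, 0 and 1.2 CPM (7 counts), and Lilrb4a, an inhibitory leukocyte receptor with close paralogs, at 19.4, 29.6, 18.7 and 23.5 CPM against 0.632, 2.44 and 0.599 CPM. Their changes were 5.14 (SE 0.61, adjusted p = 0.000141) and 4.08 (SE 0.52, adjusted p = 0.000218), and both held. The BMP receptor gene Bmpr1a (4.00, 11 counts at 3 months) and the copine gene Cpne7 (4.52, 9 counts) held as well. Esm1, Lancl3, Lrrn3 and Fam43a, with 6 or 7 counts each at 3 months, did not. Tnc and Cpne7 had no count in replicate 3, so their folds with 5 libraries cannot be read. Macrophages also express Cybb and Spp1. Their markers summed to 10.5 to 23.1 CPM at 12 months and to 7.27, 7.01 and 48.7 CPM in replicates 1, 3 and 4 at 3 months, and their part in the change of these genes was not tested. B cell markers summed to 15 to 55.6 CPM at 12 months and to 12.6, 68 and 48.7 CPM at 3 months.

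Of the 59 genes that hold, 45 were also called when each of the 7 libraries was left out in turn. In all 17 fits tried, the one with 7 libraries included, 29 genes were called, and each of them rose. They include Bhlhe40, Pdcd1, Tigit, Maf, Gzmk, Nt5e, Nrp1, Casp1, Casp4, Ahnak, Gpm6b, Ttn, Cybb, Itgb8, Tnc and Lilrb4a. Lag3, Il21, Spp1, Egr2, Ikzf2, Ccl5 and Dapl1 are not among the 29.

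Promoters of the genes that hold were read from RefSeq on the GRCm38.p6 assembly, which is the build named mm10 for the deposited counts. The table used has 250 bases before and 50 after each start, and it matched 46 of the 59 genes. The 4 motifs searched on both strands were TGANTCA (AP-1), CACGTG (E-box), TGCTGAC (a core Maf site) and ATCAAAG (TCF and LEF). AP-1 matches stood in 5.36% of the 56 promoter windows of genes that rose and held, in 4.7% of windows of the genes tested and in 7.81% of all windows in the table. The E-box stood in 5.36%, 10.2% and 7.15% of the same sets, where 5.36% stands for 3 windows. The Maf site stood in 1.79% (1 window), 3.57% and 4.67%, and the TCF and LEF site in 0%, 2.47% and 3.73%. The windows with an AP-1 match belong to Cst7, Anxa2 and Cybb, those with an E-box to Casp1, Egr2 (the first of 5 starts) and Lpin2, and the one with a Maf site to Ttn. For the matched genes described here, which leaves out Lpin2, the 250 bases before the start are shown, beside those of Spp1 (the first of 2 starts) and Dapl1, the genes with the largest fold in each direction among the listed genes with an entry. The capitals mark the match, on either strand. It begins 6, 95 and 139 bases before the start in Cst7, Anxa2 and Cybb, 137 and 27 bases before it in Casp1 and Egr2, and 46 bases before it in Ttn. In Cst7 the capitals stop 1 base short of the full AP-1 match, whose last base lies past the bases shown. None of the 4 motifs was found in the windows of Spp1 and Dapl1.
Cst7, chr2:150570165-150570414, plus strand: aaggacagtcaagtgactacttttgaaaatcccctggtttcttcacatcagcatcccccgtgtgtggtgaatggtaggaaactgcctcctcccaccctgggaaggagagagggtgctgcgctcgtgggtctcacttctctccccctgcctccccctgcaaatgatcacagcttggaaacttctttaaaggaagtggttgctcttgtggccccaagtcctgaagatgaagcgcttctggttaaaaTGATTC
Anxa2, chr9:69453433-69453682, plus strand: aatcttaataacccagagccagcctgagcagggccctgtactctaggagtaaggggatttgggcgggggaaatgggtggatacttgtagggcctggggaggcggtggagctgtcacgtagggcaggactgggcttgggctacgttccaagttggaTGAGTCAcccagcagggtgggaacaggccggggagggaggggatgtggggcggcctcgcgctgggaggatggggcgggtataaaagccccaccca
Cybb, chrX:9469325-9469574, minus strand: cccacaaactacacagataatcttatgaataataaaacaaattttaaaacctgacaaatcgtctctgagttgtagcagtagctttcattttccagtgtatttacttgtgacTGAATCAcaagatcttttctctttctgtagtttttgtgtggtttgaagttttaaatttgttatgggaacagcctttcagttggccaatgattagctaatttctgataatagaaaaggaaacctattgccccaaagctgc
Casp1, chr9:5298267-5298516, plus strand: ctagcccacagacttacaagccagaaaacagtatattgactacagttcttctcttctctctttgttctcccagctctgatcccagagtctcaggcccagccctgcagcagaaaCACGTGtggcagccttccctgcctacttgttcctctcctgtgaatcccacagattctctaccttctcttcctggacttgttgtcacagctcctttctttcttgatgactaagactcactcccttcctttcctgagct
Egr2, chr10:67535249-67535498, plus strand: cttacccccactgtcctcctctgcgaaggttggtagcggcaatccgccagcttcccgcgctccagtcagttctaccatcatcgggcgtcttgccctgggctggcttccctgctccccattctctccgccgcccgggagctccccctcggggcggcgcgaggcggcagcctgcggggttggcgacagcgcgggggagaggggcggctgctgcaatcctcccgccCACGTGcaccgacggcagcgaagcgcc
Ttn, chr2:76982548-76982797, minus strand: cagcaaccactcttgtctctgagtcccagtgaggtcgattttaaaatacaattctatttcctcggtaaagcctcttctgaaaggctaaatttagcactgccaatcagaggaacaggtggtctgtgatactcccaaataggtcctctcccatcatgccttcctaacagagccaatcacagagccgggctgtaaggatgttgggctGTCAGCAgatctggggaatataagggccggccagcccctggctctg
Spp1, chr5:104434861-104435110, plus strand: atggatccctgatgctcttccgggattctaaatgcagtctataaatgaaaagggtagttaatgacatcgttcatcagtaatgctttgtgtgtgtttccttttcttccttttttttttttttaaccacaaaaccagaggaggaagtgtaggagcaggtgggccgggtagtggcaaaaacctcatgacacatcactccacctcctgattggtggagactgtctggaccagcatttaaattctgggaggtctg
Dapl1, chr2:59484403-59484652, plus strand: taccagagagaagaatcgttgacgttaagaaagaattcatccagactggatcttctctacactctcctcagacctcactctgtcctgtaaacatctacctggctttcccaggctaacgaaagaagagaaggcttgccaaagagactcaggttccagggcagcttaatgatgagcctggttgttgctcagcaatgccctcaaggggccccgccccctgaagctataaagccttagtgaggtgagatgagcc

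Few genes fell and held. Dapl1, a transcript of naive T cells, was at 71.5, 35.6, 46.2 and 37.3 CPM at 12 months against 287, 119 and 340 CPM at 3 months. It fell by 2.58 (SE 0.32, adjusted p = 0.000189) on the log2 scale, and by 1.36 (SE 0.31, adjusted p = 0.0484) without the ribosome-rich libraries, in which case it passed narrowly. The other 2 were outside the naming rule and are given here with their values known. Tspan9, a tetraspanin gene, was at 0.363 to 2 CPM against 3.79, 16.8 and 5.99 CPM (-3.23, SE 0.74, adjusted p = 0.0224, and -4.09 with 5 libraries). Gm26917, a predicted gene with 10692 to 12437 CPM at 12 months, was at 28563 and 36324 CPM in the ribosome-rich libraries and at 16280 CPM in replicate 3 (-1.45 with 7 libraries and -0.59 with 5).

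Dapl1 was 1 of 2 genes to fall among 19 of the naive and homing list. Klf2, a factor of quiescence and lymphocyte homing, fell by 0.93 (SE 0.22, adjusted p = 0.0281) and did not hold (-0.37, adjusted p = 0.804). Ccr7, the lymph node homing receptor, was at 911, 628, 807 and 867 CPM against 951, 1087 and 1043 CPM, so its ages did not overlap, but its change of -0.53 (SE 0.20) did not pass (adjusted p = 0.149). Satb1 gave -0.47 (adjusted p = 0.21) with 7 libraries and -0.64 (adjusted p = 0.0748) with 5. Tcf7, the factor TCF-1, gave -0.07 (SE 0.19), and S1pr1, the receptor for exit into lymph, -0.19 (SE 0.18). The list's median was -0.36 with 7 libraries and -0.47 with 5, so it did not move toward 0.

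Removing the ribosome-rich libraries also added 11 genes that the 7 libraries did not call, and they are given here although outside the rule, with their values known. Among them 3 were S100 genes of memory and effector T cells. S100a4 was at 54.8, 59.6, 39 and 64.7 CPM at 12 months and at 30, 13.4 and 51.9 CPM at 3 months, S100a6 at 137, 111, 107 and 146 against 56.6, 36 and 78.7 CPM, and S100a11 at 48.8, 47.1, 44.9 and 54.4 against 44.3, 14 and 38.7 CPM. In each, replicate 3 was the lowest library. The 5-library values were 1.95, 1.73 and 1.73, and the 7-library values 0.55, 0.93 and 0.39. S100a10, another S100 gene of the memory list, gave 0.49 with 5 libraries and -0.50 with 7. The chemokine receptor gene Cxcr3 was at 259, 214, 218 and 237 CPM against 151, 84.5 and 124 CPM, with 1.39 (adjusted p = 0.00273) in 5 libraries and 0.76 (adjusted p = 0.0624) in 7. Tnfrsf4 and Izumo1r, given above, and Ascl2, a follicular helper factor with no count in replicates 3 and 4 at 3 months, passed upward in that fit too. The 4 that fell in it were Rapgef4, Spon1, Ugcg and Zfp266, and in each of these replicate 3 stood above every other library.

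Ribosomal protein genes were the largest of the groups that fell with 7 libraries. Of 79 tested, 67 fell and none held, and their median went from -1.26 with 7 libraries to -0.19 with 5. Rpl38 was at 42.8, 58.1, 37.9 and 50 CPM at 12 months, at 139 and 283 CPM in replicates 1 and 4 and at 60.1 CPM in replicate 3. Its change was -1.99 (SE 0.38, adjusted p = 0.00965), and -0.42 (adjusted p = 0.836) without the ribosome-rich libraries. For 78 of the 79 genes both ribosome-rich libraries stood above replicate 3, and for 33 of 79 replicate 3 stood above every 12-month library. The ribosome-rich libraries were set apart by the share of these same genes. Their height above replicate 3, and the fading of the fall without them, thus followed largely from that choice and are no separate result.

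Genes of oxidative phosphorylation followed the same libraries, with 7 of 29 that fell, none that held, and a median of -0.93 with 7 libraries and 0.11 with 5. Atp5e, the epsilon subunit of ATP synthase, was at 106, 112, 82.5 and 97.5 CPM against 245, 97.6 and 333 CPM, so replicate 3 lay within the 12-month range (-1.39, SE 0.31, adjusted p = 0.0182, and -0.04 with 5 libraries). Uqcrh, a complex III subunit, fell by 1.26 (SE 0.31, adjusted p = 0.0298) and gave 0.06 with 5 libraries. The translation factors Btf3, Naca, Eif3k and Eef1d fell, 4 of 17 in that list, and none held (median -0.61 and -0.18). Of the 230 genes that fell, 25 were counted as respiratory chain genes, a wider group than the list above. Another 123, these translation factors included, were neither respiratory chain genes nor ribosomal protein genes, their pseudogenes or mitochondrial counterparts. Of those 123, 63 were higher in replicate 3 than in every 12-month library, and their median was -1.09 with 7 libraries and -0.31 with 5.

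Of 22 type I interferon genes 3 fell, Usp18 by 1.07 (SE 0.23, adjusted p = 0.0165), Rtp4 by 1.36 (SE 0.31, adjusted p = 0.0226) and Xaf1 by 0.99 (SE 0.26, adjusted p = 0.0407), and none held. Usp18, which limits interferon signaling, was at 34.8, 54.6, 39.8 and 53.7 CPM against 93.6, 80.5 and 79.3 CPM, so replicate 3 was as high as replicate 4. Its 5-library value of -0.89 did not pass (adjusted p = 0.322). For Rtp4 replicate 3, at 97.9 CPM, lay below the highest 12-month library (101 CPM). For Xaf1, at 81.7 CPM, it lay just above the highest (81.2 CPM). The list's median was -0.49 with 7 libraries and -0.18 with 5.

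Several groups moved little or in single genes. No T cell identity gene of 15 passed, with Trac at -0.31 (SE 0.22) and Cd3d at -0.61 (SE 0.25, adjusted p = 0.176), and their median was -0.38 with 7 libraries and 0.10 with 5. Mcm6, a subunit of the replicative helicase, was the only gene of 23 cell cycle genes to pass (0.89, SE 0.20, adjusted p = 0.0227), and Pcna gave -0.30. Trp53inp1 was the only gene of 10 in the senescence list (1.02, SE 0.25, adjusted p = 0.0305), and neither held. No gene of 15 in glycolysis or of 14 in cholesterol synthesis passed. The immediate early and heat shock list had none of 12 past the threshold, with a median of 0.50 with 7 libraries and 0.47 with 5. Its summed level varied widely at 12 months, at 5868, 3340, 5766 and 2173 CPM, against 2712, 2967 and 1834 CPM at 3 months.

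The chemokine and cytokine receptor lists had 3 members each that rose, and none of these held. In the chemokine receptor list they were 3 of 16, among them Cxcr5 and Ccr8 (1.76, SE 0.48, adjusted p = 0.0485). In the cytokine receptor list they were Il2rb, Il10ra and Il1r2, 3 of 22. Il2rb, the beta chain shared by the receptors for interleukins 2 and 15, was at 149, 112, 134 and 162 CPM against 39.5, 67.4 and 45.5 CPM (1.29, SE 0.22, adjusted p = 0.00361) and gave 0.98 (adjusted p = 0.0902) with 5 libraries. Il7r, the survival receptor of naive and memory cells, was at 712 to 775 CPM at 12 months and ran from 496 to 1042 CPM at 3 months, with no call (-0.25, SE 0.23). Of 7 regulators of G protein signaling, Rgs16 rose (3.20, SE 0.49, adjusted p = 0.00127) and did not hold (adjusted p = 0.0744).

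**Figure D4:**
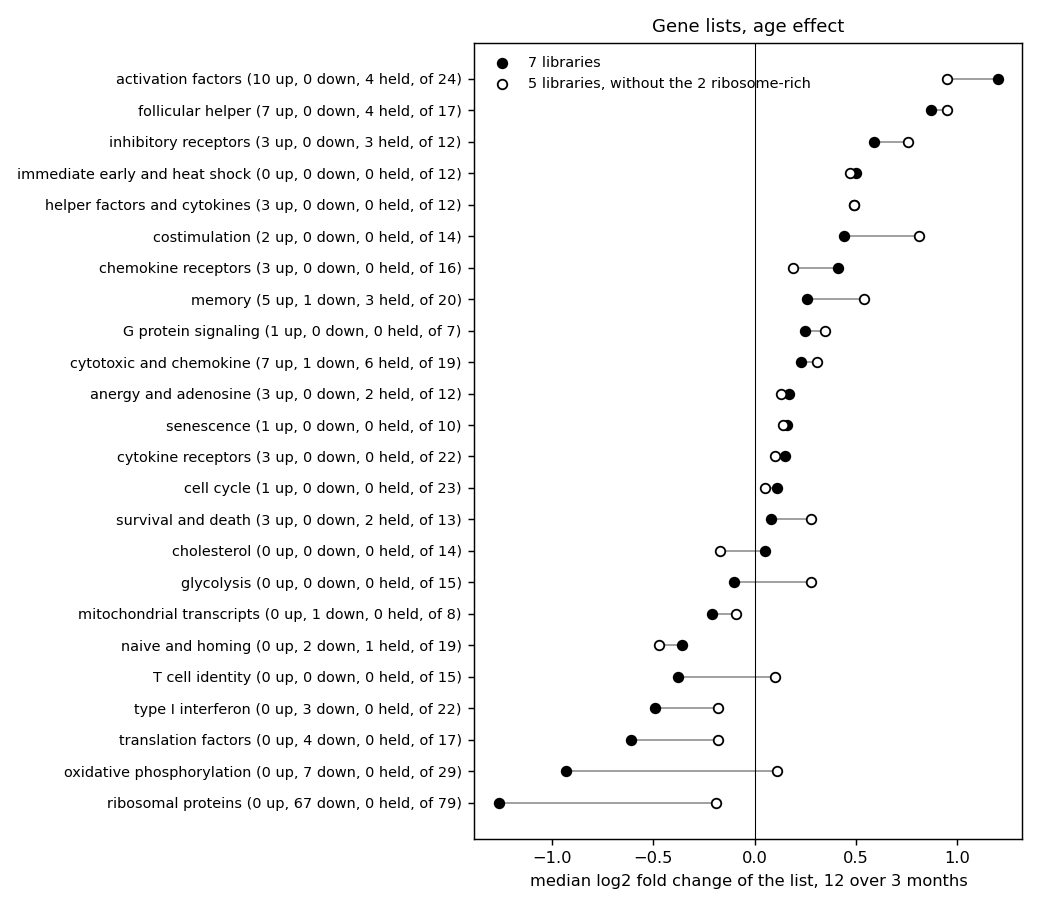
Median log2 fold change of 12 over 3 months for each gene list, with 7 libraries (filled) and without the 2 ribosome-rich libraries (open). The labels give how many of the genes tested were called up, down, and in both fits. Activation factors and follicular helper genes keep medians near 1, while oxidative phosphorylation moves from -0.93 to 0.11 and ribosomal proteins from -1.26 to -0.19. The libraries left out were set apart by the share of those ribosomal proteins.

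Markers of regulatory T cells were looked at beside the genes that rose, and they did not move as one. Foxp3 was at 51.7, 74.7, 79.9 and 79.9 CPM at 12 months and at 21.2, 44.8 and 31.5 CPM at 3 months, and it rose by 0.97 (SE 0.27, adjusted p = 0.0469) with 7 libraries but gave 0.61 (adjusted p = 0.692) with 5. It was the one gene of the 5 markers to pass, and the others went both ways. With 7 libraries Ikzf4 gave 0.66, Gpr83 0.10, Il2ra -0.13 and Lrrc32 -0.95. With 5 libraries these values were 0.46, -0.42, -0.94 and -1.16. The median of the 5 markers was 0.10 with 7 libraries and -0.42 with 5. The sum of the 5 markers was 178 to 268 CPM at 12 months and 126, 209 and 96.4 CPM in replicates 1, 3 and 4 at 3 months. The sum of replicate 3 thus lay inside the range of the old libraries, but its members differed. For Foxp3 and for Ikzf4 (49.4 CPM against 62 to 87.7 CPM) replicate 3 lay below every 12-month library. It lay above every one for Lrrc32 and for Il2ra, which encodes the CD25 of the sort gate (58.2 CPM against 21.8 to 46.1 CPM). For Gpr83 it lay inside their range. Ikzf2, Nrp1, Itgb8, Izumo1r, Lag3, Pdcd1, Maf and Tigit are also expressed by regulatory T cells, and the part of Foxp3-bearing cells in their change was not tested.

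The age effect was set against that of 3 other sorts, with the difference of the age effects tested as an interaction in a fit of the 4 groups (edgeR, Benjamini-Hochberg over all genes). The other sorts came from female C57BL/6J mice of the same 2 ages and with the same tumor. These comparisons share the 7 libraries described above and are not independent of each other. Against spleen CD8 T cells, sorted in the same way (4 libraries per age), 34 of 13139 genes differed (0.259%), 19 with a higher (0.145%) and 15 with a lower (0.114%) age effect in conventional CD4 T cells. Leaving out replicate 3 of the young CD4 libraries gave 1641 genes, and leaving out replicate 1 or replicate 4 gave 8. Without both ribosome-rich libraries 1 gene passed, Ptpn11, which encodes the phosphatase SHP-2. It was at 118, 94.2, 110 and 110 CPM at 12 months against 30.7, 31.7 and 27.8 CPM at 3 months in the CD4 cells, and at 31.2 ± 6.94 against 41.7 ± 6.42 CPM (SD, n = 4 each) in CD8 T cells. The difference of the 2 log2 effects was 2.12 (SE 0.28, adjusted p = 0.000642), and 2.11 (adjusted p = 0.0305) without the ribosome-rich libraries.

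Nt5e had a higher age effect in CD4 than in CD8 T cells too, by 1.68 (SE 0.26, adjusted p = 0.00369), since CD8 T cells had 90.2 ± 15.5 CPM at 12 and 83.5 ± 13.3 CPM at 3 months. Itgb8 held 2 counts in the CD8 libraries of 12 months and 40 in those of 3 months, at most 4.17 CPM in any, and passed without a fold that can be read. Baiap3 differed by 2.83 (SE 0.51). On the lower side, the NK receptor gene Klrk1, which encodes NKG2D, was at 204 ± 28.8 CPM in old and 58.9 ± 1.63 CPM in young CD8 T cells (SD, n = 4 each), but at 13.5 ± 6.78 and 17.1 ± 2.46 CPM in CD4 T cells, a difference of -2.31 (SE 0.36, adjusted p = 0.00369). Klrd1, Fcgrt, Gpr18 and Commd6 were lower by 1.27 to 2.37 on the log2 scale, and apart from Ptpn11 none of the genes named here passed without the ribosome-rich libraries. For Bhlhe40, Lag3, Pdcd1 and Casp4 the difference from CD8 T cells did not pass, with 1.14 (SE 0.41), 1.34 (SE 0.58), 0.72 (SE 0.35) and -0.56 (SE 0.34). For Dapl1 it did, at -1.96 (SE 0.39, adjusted p = 0.0288), and was -0.79 without the ribosome-rich libraries.

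Against spleen regulatory T cells (4 libraries per age), 27 of 13548 genes differed (0.199%), each with a higher age effect in the conventional cells, or 1035 genes when replicate 3 of the young conventional cells was left out. The 5 with the smallest adjusted p were Cd83, Itgb8, Cyfip1, Tasp1 and Wls. Cd83, a surface protein of activated lymphocytes and dendritic cells, was at 114, 81.7, 91.6 and 97.8 CPM against 16.4, 30.2 and 11.4 CPM in conventional cells, and at 459 ± 68.5 against 414 ± 70.7 CPM in regulatory T cells (SD, n = 4 each). The difference was 2.07 (SE 0.30, adjusted p = 0.00318). Bhlhe40 differed by 2.14 (SE 0.37, adjusted p = 0.00753), Lag3 by 2.02 (SE 0.38, adjusted p = 0.0165) and Pdcd1 by 1.38 (SE 0.27, adjusted p = 0.0223), and Casp4 did not pass (1.12, SE 0.28, adjusted p = 0.103). No gene passed without the ribosome-rich libraries in edgeR, where 1011 of 16025 had an unadjusted p under 0.05, and Cd83, Lag3 and Pdcd1 gave 1.48, 2.81 and 1.28 in that fit.

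Against conventional CD4 T cells of the tumor (4 libraries at 12 and 2 at 3 months), 98 of 14661 genes differed (0.668%), 94 with a higher (0.641%) and 4 with a lower (0.0273%) age effect in the spleen. Without the ribosome-rich libraries 43 passed, 37 of them among the 98. Leaving out replicate 3 of the young spleen gave 640 genes, and leaving out replicate 1 of the young tumor gave 24. Bhlhe40 was far more abundant in the tumor, at 514 ± 80.5 CPM in old (SD, n = 4) and 720 ± 88.2 CPM in young mice (SD, n = 2), and its age effect differed by 3.66 (SE 0.35, adjusted p = 9.35e-07). Itgb8 was at 25.9 ± 13.2 against 83.1 ± 39.9 CPM in the tumor and differed by 5.17 (SE 0.56, adjusted p = 6.89e-06), and Cd83 at 13.1 ± 5.6 against 40.2 ± 20.5 CPM, by 3.79 (SE 0.49, adjusted p = 0.000154). Thus the old cells were higher in the spleen and had the lower mean in the tumor for these 3 genes.

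Stx11, a syntaxin of cytotoxic granule release, and the membrane protein gene Ncmap differed by 2.62 (SE 0.35) and 3.03 (SE 0.40). Pdcd1, at 318 ± 48.8 against 282 ± 9.6 CPM in the tumor, differed by 1.79 (SE 0.28, adjusted p = 0.00118), and Casp4 by 1.84 (SE 0.30, adjusted p = 0.00121). These 4 genes and Bhlhe40, Itgb8 and Cd83 passed without the ribosome-rich libraries as well, with adjusted p-values from 3.37e-05 to 0.0098. Lag3 did not pass (4.16, SE 1.11, adjusted p = 0.206). Its tumor levels varied widely, from 23 to 331 CPM at 12 months (n = 4), against 409 ± 260 CPM at 3 months (SD, n = 2). On the lower side, mt-Nd2 (-1.41, SE 0.31) and Lars2 (-1.79, SE 0.42) did not pass without the ribosome-rich libraries (adjusted p = 0.519 and 0.795).

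**Figure D5:**
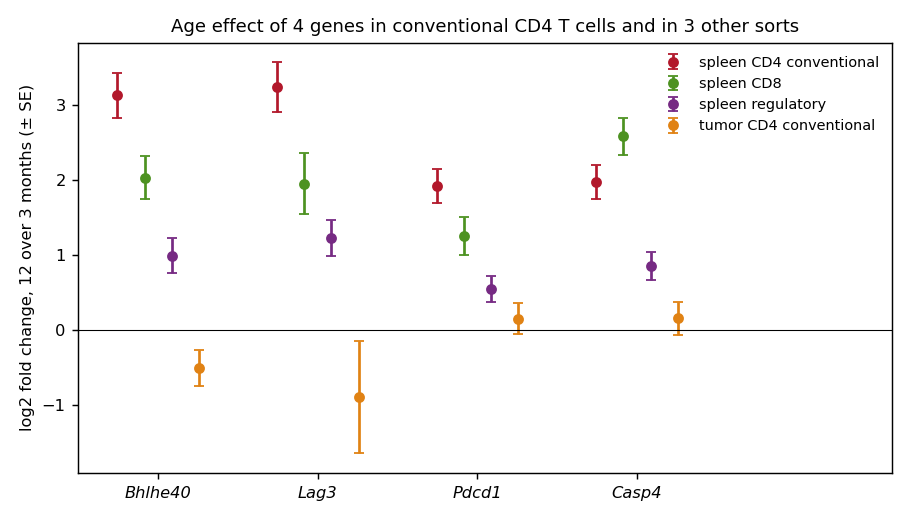
Log2 fold change of 12 over 3 months with its SE for 4 genes that hold, in spleen conventional CD4 T cells (7 libraries) and in spleen CD8, spleen regulatory and tumor conventional CD4 T cells. Values in the tumor lie near or below 0 for Pdcd1 (0.15), Casp4 (0.15), Bhlhe40 (-0.51) and Lag3 (-0.90, SE 0.75). Those in CD8 T cells are between 1.25 and 2.58.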

How the data were processed

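Smart-seq2 RNA sequencing was analysed in 7 libraries of spleen conventional CD4 T cells, with the 8 spleen CD8, 8 spleen regulatory and 6 tumor conventional CD4 T cell libraries for comparison. The authors deposited raw counts of reads per gene for 49480 symbols, of which 46891 match a reference name table. STAR 2.5.3, featureCounts and mm10 are named per the submitters' processing notes. Not given in the sources used here are the annotation release, the strand setting and how reads with several matches were treated, so overlapping genes and close paralogs (Lilrb4a, for example) are uncertain.

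Genes with few counts were removed (filterByExpr), libraries scaled by TMM, and robust quasi-likelihood models fitted with edgeR 4.0.16 (with limma 3.58.1, R 4.3.3). P-values are two-sided, and their Benjamini-Hochberg adjustment covered every gene in the fit (threshold 0.05). The fit of 5 libraries tested the same genes as that of 7. The comparisons with other sorts were filtered anew without the ribosome-rich libraries and then tested more genes. These were 15931 instead of 13139 for CD8, 16025 instead of 13548 for regulatory and 17150 instead of 14661 for tumor cells. Levels are CPM as mean ± SD. CPM, and the overlap of libraries read from it, do not include the TMM factors that the fold changes use. These factors were 0.902 and 0.894 in the ribosome-rich libraries, 1.009 in replicate 3 at 3 months and 1.022 to 1.082 at 12 months. Beside the fold changes, CPM thus reads lower in the ribosome-rich libraries. Where a group held 1 to 3 counts, levels alone are given. The scripts were tested on simulated data. Totals give the depth; reads carry no molecular identifiers, so counts are not independent molecules.

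Gene lists (38, of which 14 hold markers of other cells), the naming rule and the tests were chosen with earlier results of these data known. The rule took, from each list for T cell functions, up to 6 members past the threshold and up to 3 abundant ones that were not, and from process lists up to 3 and 1. To these it added the 10 highest and lowest folds, the 10 smallest adjusted p-values among genes that hold, and 5 per side of each comparison with another sort. These extra genes needed libraries that do not overlap between the ages (for comparisons between sorts, in at least one sort), a mean of at least 10 CPM, and no predicted, receptor segment or ribosomal protein gene. The text gives a selection, and a few genes of the rule are not reported here. Alternatives were DESeq2 size factors, DESeq2 1.42.0, no low-count filter, a replicate block, each library left out, no ribosomal protein genes, the ribosomal share as a covariate, and 4 groups in one fit. Replicate numbers were not used to pair libraries. Whether same-numbered libraries of different sorts share a mouse was not checked.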

Additional observations from a re-analysis of the deposited data

Results flagged for a closer look

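Genes were looked at again where 1 of the 4 libraries at 12 months lay far from the other 3 (a test of the gap that chance meets in about 1 in 20 groups). This was so for 7 of the 130 named genes. Tcf7 was at 902 CPM in replicate 2 against 957 to 968 CPM in the others, Runx1 at 145 CPM against 175 to 179 CPM in the same comparison of replicate 2 with the rest. Bcl2 was at 517 CPM in replicate 1, against 597 to 601 CPM, and Gata3 at 374 CPM in that library, against 317 to 326 CPM. Il7r was at 712 CPM in replicate 3, against 766 to 775 CPM. Nfatc1 was at 363 CPM and Rgs19 at 197 CPM in replicate 4, against 288 to 299 and 160 to 164 CPM. The gaps are small next to the levels, and none of these 7 genes passed the threshold between the ages.

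Other genes had an age effect that differed from that of another sort by a test of the difference (edgeR, Benjamini-Hochberg). Against spleen CD8 T cells the log2 differences were 2.12 for Ptpn11, 1.68 for Nt5e and 2.83 for Baiap3, and -2.31 for Klrk1, -1.71 for Klrd1, -2.37 for Fcgrt, -1.27 for Gpr18 and -1.42 for Commd6. Itgb8 also passed, with a mean of 58.5 CPM in conventional CD4 T cells at 12 months and at most 4.17 CPM in any CD8 library. Against spleen regulatory T cells they were 2.07 for Cd83, 2.97 for Itgb8, 1.67 for Cyfip1, 1.44 for Tasp1 and 1.59 for Wls. Between spleen and tumor they were 3.66 for Bhlhe40, 5.17 for Itgb8, 3.79 for Cd83, 3.03 for Ncmap and 2.62 for Stx11, and -1.41 for mt-Nd2 and -1.79 for Lars2. Of these, Ptpn11 against CD8 T cells and the 5 positive differences from the tumor passed without the 2 ribosome-rich libraries.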

How the results depend on the processing

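For the age effect, 460 genes became 839 when no filter on low counts was applied and 805 in DESeq2, against 70 without the 2 ribosome-rich libraries, 73 with the ribosomal share as a covariate, and 53, each of them up, with 4 groups in one fit without those libraries. It ranged from 88 (without replicate 1 at 3 months) to 2400 (without replicate 3), with 137 without replicate 4 and 123 to 165 without each 12-month library. The share of calls that rose was 50% and ran from 41.6% (no filter) to 100% (4 groups without the ribosome-rich libraries), with 80.6% to 90.9% when a library other than replicate 3 was left out. The 59 genes that hold became 104 without a filter and 90 with DESeq2, and ran from 45 to 57 without each 12-month library. Of the 59, 50 to 58 were called with 7 libraries less 1, and 38 in both fits of 4 groups.

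For CD4 minus CD8 T cells, 34 genes became 447 without a filter, 371 with DESeq2 and 1 without the ribosome-rich libraries, and ran from 8 to 1641 with single libraries left out. For CD4 minus regulatory T cells, 27 became 201, 148 and 0 (8 to 1035). For spleen minus tumor, 98 became 261, 194 and 43 (24 to 640). The upper end in each case leaves out replicate 3 at 3 months. Where 1 library remained in a group, it was assumed to vary like the others.

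Uqcrh and mt-Nd3 fell with 7 libraries and changed sign without the ribosome-rich libraries (0.065 and 0.089) and with the ribosomal share as a covariate (0.093 and 0.007), and the cause was not tested. Of the 79 named genes that passed with 7 libraries, 31 passed under each of these 2 settings.

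With replicate numbers entered as a replicate block, 315 genes were called, 284 of them among the 460 and 58 among the 59, with 195 up and 120 down. The comparisons with CD8, regulatory and tumor cells gave 123, 33 and 71. Correlations of same-numbered libraries across the ages were 0.001, 0.052 and 0.082, so the numbers were not taken as pairs between the ages. These correlations cannot say whether same-numbered libraries of different sorts within an age share a mouse, which was not checked. Low counts at 3 months (5 for Spp1, 7 for Tnc) limit the precision of the largest folds.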
